A study of Homo sapiens with 9 samples.

Results

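ISG15 conjugation is the attachment of ISG15, a ubiquitin-like protein, to other proteins by its own chain of enzymes. The genes followed here were ISG15, the E1 enzyme UBA7, the E2 enzyme UBE2L6, the E3 ligases HERC5 and HERC6, and the protease USP18. They were taken by symbol, and all 6 were found among the 22295 entries of the expression table. They had been picked because of their differences between the groups in these same libraries, so their values, and the counts of them past a threshold, are given as a description and no test of them is used as support. FPKM counts the fragments of a gene per length of its transcript and per number of fragments mapped in the library, so that genes can be set beside each other.

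The libraries came from U251, an established human glioblastoma cell line, after infection with lentivirus carrying a short hairpin RNA. There were 3 groups of 3 libraries each. In sh-Luci-3d the cells were 3 days past infection with the control hairpin against luciferase. In sh-Ptbp1-3d they were 3 days, and in sh-Ptbp1-7d 7 days, past infection with a hairpin against PTBP1. PTBP1 is an RNA-binding protein that represses neuronal exons. The study tested 3 hairpins against PTBP1 and used the most effective of them afterwards, in a vector with an M-cherry marker. Its methods moved infected cells from serum medium into a neuronal induction medium with N2, B27, forskolin and dorsomorphin before day 3. No sh-Luci library of 7 days was analysed here. Between sh-Luci-3d and sh-Ptbp1-7d the hairpin, the later time and the longer stay in that medium thus cannot be told apart. The PTBP1 groups shared their hairpin. What cannot be separated between them is the later time, the longer knockdown and the longer stay in that medium. The labels do not say whether the 3 libraries of a group came from separate cultures, so the spread between them may be technical.

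ISG15 works like ubiquitin. UBA7 activates it, UBE2L6 receives it from UBA7, HERC5 transfers it to target proteins in human cells, often while they are being made, and USP18 removes it again. HERC6 is a close relative of HERC5 and the main ISG15 ligase of mice, where HERC5 is missing. All of these genes are known to be induced by type I interferon, through a complex with STAT2 and IRF9 that binds an element called the ISRE in promoters. USP18 also sits on the interferon receptor with STAT2 and dampens its signal.

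The level of PTBP1, the target of the hairpin, was 115.7 ± 7.58 FPKM in sh-Luci-3d (SD over 3 libraries), 63.9 ± 2.67 in sh-Ptbp1-3d and 50.5 ± 0.645 in sh-Ptbp1-7d, with no overlap between any groups. The libraries summed to 367412 to 404922 FPKM, with 16733 to 17325 entries above 0 in each. The label of a glial tumour line was checked with 12 astroglial and glioma markers, which summed to 4473 to 4598 FPKM in sh-Luci-3d, 4595 to 4891 in sh-Ptbp1-3d and 1401 to 1522 in sh-Ptbp1-7d, mostly VIM. In sh-Ptbp1-7d relative to sh-Ptbp1-3d, 2 of these rose (S100B and SLC1A3) and 2 fell (VIM and CD44) of 10 tested. In the mean of each group 4 of the 12 were below 1 FPKM, among them ALDH1L1 and AQP4, near 0 in all groups. The 12 neuronal markers summed to 483.5 to 521.5 FPKM, 555.0 to 571.3 and 250.8 to 258.6 in that order of groups. Of 10 tested, 3 fell (TUBB3, NEFL and NEFM) and 0 rose in sh-Ptbp1-7d relative to sh-Ptbp1-3d. Against sh-Luci-3d 3 fell and 1 rose. Of all genes, 8.31% rose and 5.9% fell in the first comparison, and 8.93% and 5.68% in the second. The median difference in log2(FPKM + 0.1) over the 10 was -1.18 and 0.068 respectively. In sh-Ptbp1-3d against sh-Luci-3d it was 0.52, and 0 passed. There the ranges of 4 of the 10 lay apart, all with sh-Ptbp1-3d higher. The highest difference there, 2.28, mirrored the lowest in the first comparison, -2.28. By group mean, 7 of the 12 were below 1 FPKM in sh-Ptbp1-3d and 8 in each other group. Whether single libraries carried these medians was not tested, so no rise and later fall of the list as a whole is read from them. Of 20 markers of blood and immune cells, which use the ISG15 pathway strongly, 19 were below 1 FPKM in the mean of every group and 9 or 10 were at 0 in every library of a group. Their summed level was 10.9 to 11.9 FPKM in sh-Luci-3d, 11.4 to 11.7 in sh-Ptbp1-3d and 16.7 to 19.5 in sh-Ptbp1-7d, nearly all of it CD68. The 6 endothelial markers, all below 1 FPKM in the mean of every group, summed to 0.516 to 0.940 FPKM, 0.528 to 0.952 and 0.167 to 0.359. The part of these marker levels in the results was not tested. In such bulk RNA, more cells that express a gene and more RNA per cell cannot be told apart.

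The promoters of 4 of the 6 genes, 250 bases before to 50 after the start site, were in RefSeq (GRCh38.p14). They are shown because interferon-induced genes are known for the ISRE, searched here as GAAANNGAAA on both strands. That motif was in 3.574% of all 35116 promoter windows. ISG15 lies at chr1:1013247-1013546 on the plus strand in this window and held 2 overlapping matches, from 113 to 98 bases before the start. HERC5, at chr4:88456869-88457168 on the plus strand, held 3 matches, all on the opposite strand and thus read as TTTCNNTTTC, at 125 to 110 bases before the start, where a pair of them overlapped, and at 74 to 65 bases. The windows of HERC6 (chr4:88378602-88378901, plus strand) and UBE2L6 (chr11:57567886-57568185, minus strand) held none, nor did the other UBE2L6 window. Matches are in capitals and all else is in lower case.
ISG15: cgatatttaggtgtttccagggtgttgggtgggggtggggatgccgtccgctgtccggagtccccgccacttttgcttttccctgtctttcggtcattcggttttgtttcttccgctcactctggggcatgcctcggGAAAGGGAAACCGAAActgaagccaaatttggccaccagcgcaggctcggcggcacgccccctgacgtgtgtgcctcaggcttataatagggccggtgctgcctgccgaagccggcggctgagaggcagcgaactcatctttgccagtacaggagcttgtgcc
HERC5: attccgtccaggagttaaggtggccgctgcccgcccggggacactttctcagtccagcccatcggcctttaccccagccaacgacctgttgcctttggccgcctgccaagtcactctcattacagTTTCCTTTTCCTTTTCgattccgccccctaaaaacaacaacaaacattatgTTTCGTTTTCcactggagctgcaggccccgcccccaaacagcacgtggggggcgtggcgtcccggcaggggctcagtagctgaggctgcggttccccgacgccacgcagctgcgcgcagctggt
HERC6: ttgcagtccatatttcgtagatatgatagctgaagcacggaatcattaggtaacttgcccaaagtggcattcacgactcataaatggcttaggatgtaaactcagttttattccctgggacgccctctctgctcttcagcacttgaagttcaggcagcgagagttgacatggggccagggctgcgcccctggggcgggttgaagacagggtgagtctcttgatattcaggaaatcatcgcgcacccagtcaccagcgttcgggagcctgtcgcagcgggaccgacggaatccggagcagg
UBE2L6: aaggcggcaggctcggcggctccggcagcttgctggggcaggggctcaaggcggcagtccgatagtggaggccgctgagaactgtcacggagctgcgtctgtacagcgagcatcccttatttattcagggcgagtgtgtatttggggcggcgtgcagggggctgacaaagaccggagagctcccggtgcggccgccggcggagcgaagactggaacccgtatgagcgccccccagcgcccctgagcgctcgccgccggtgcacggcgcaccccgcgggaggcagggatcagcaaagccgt
The STAT motif TTCNNNGAA was in none of the 5 windows of these genes, against 7.657% of all windows. A missing match says only that these letters are not in these bases. UBA7 and USP18 were not among the RefSeq windows used.

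The modifier came first in level. ISG15 (GRCh38, chromosome 1, 1001138 to 1014540, plus strand in GENCODE v29) was at 438.3, 651.7 and 821.3 FPKM in the sh-Luci-3d libraries. It was at 547.8, 577.6 and 690.3 in sh-Ptbp1-3d, and at 2315, 2575 and 2749.8 in sh-Ptbp1-7d. All 3 sh-Ptbp1-7d libraries were thus far above the other 6, which overlapped by group. The mean of sh-Ptbp1-7d was 4.21 times that of sh-Ptbp1-3d, a difference in log2(FPKM + 0.1) of 2.08 (SE 0.194). Against sh-Luci-3d it was 2.04, and that of sh-Ptbp1-3d against sh-Luci-3d was -0.03. ISG15 was among the most abundant mRNAs in all groups, at or above the 99.3rd percentile of the 15551 genes in every library.

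The enzymes that activate and carry ISG15 stood further apart between the groups than ISG15 itself. UBA7 (chromosome 3, 49805207 to 49813946, minus strand) was at 3.38, 4.87 and 5.52 FPKM in sh-Luci-3d and at 4.42, 3.81 and 4.37 in sh-Ptbp1-3d. In sh-Ptbp1-7d it was at 39.7, 41.5 and 41.1. The day-7 libraries were tightly grouped and their mean was 9.71 times that of sh-Ptbp1-3d, a log2 difference of 3.25 (SE 0.154). In sh-Ptbp1-3d the E1 mRNA sat at percentiles 42.1 to 45.7 of all genes, and in sh-Ptbp1-7d at 89.4 to 90.0.

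UBE2L6 (chromosome 11, 57551656 to 57568284, minus strand) differed most of the 6 genes. It was at 8.22, 14.7 and 17.3 FPKM in sh-Luci-3d, at 12.2, 11.3 and 18.0 in sh-Ptbp1-3d and at 186.3, 184.8 and 198.8 in sh-Ptbp1-7d. The 3 day-7 libraries were close to each other and far above the other 6. The ratio of means was 13.7 against sh-Ptbp1-3d and 14.2 against sh-Luci-3d, with log2 differences of 3.80 and 3.88 (SE 0.245).

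The ligases differed least. HERC5 (chromosome 4, 88457117 to 88506163, plus strand) was at 17.9, 29.1 and 24.7 FPKM in sh-Luci-3d, at 17.6, 19.0 and 22.9 in sh-Ptbp1-3d and at 66.6, 69.3 and 61.8 in sh-Ptbp1-7d. Its day-7 mean was 3.32 times that of sh-Ptbp1-3d (log2 difference 1.73, SE 0.160) and 2.76 times that of sh-Luci-3d (1.49). HERC6, which lies just before HERC5 on the same strand (chromosome 4, 88378739 to 88443111), was at 17.1, 24.2 and 21.7 FPKM in sh-Luci-3d, at 16.1, 15.7 and 16.6 in sh-Ptbp1-3d and at 49.7, 49.3 and 43.7 in sh-Ptbp1-7d. For both, every day-7 library was above every other library. HERC6 had the smallest ratio of means, 2.95 against sh-Ptbp1-3d (log2 difference 1.55, SE 0.118) and 2.26 against sh-Luci-3d (1.19).

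The protease USP18 (chromosome 22, 18149899 to 18177397, plus strand) was at 21.5, 28.4 and 26.3 FPKM in sh-Luci-3d, at 20.3, 21.6 and 23.3 in sh-Ptbp1-3d and at 82.9, 80.7 and 86.6 in sh-Ptbp1-7d. The first pair of groups overlapped and the day-7 libraries stood above both. The ratio of means was 3.84 against sh-Ptbp1-3d (log2 difference 1.94, SE 0.104) and 3.28 against sh-Luci-3d (1.72). USP18 shares sequence with a copy, USP41. Of its 2080 windows of 50 bases, 23.4% also occur in transcripts of other genes, 23% in USP41, so fragments could be split between them. USP41 itself was at 0.189, 6.04 and 1.18 FPKM in sh-Luci-3d, 0.961, 0.269 and 0.452 in sh-Ptbp1-3d and 4.40, 0.620 and 3.21 in sh-Ptbp1-7d, well below USP18 in every library. HERC6 shared 0.804% of its windows, with HERC3, and the other 4 genes none.

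**Figure D1:**
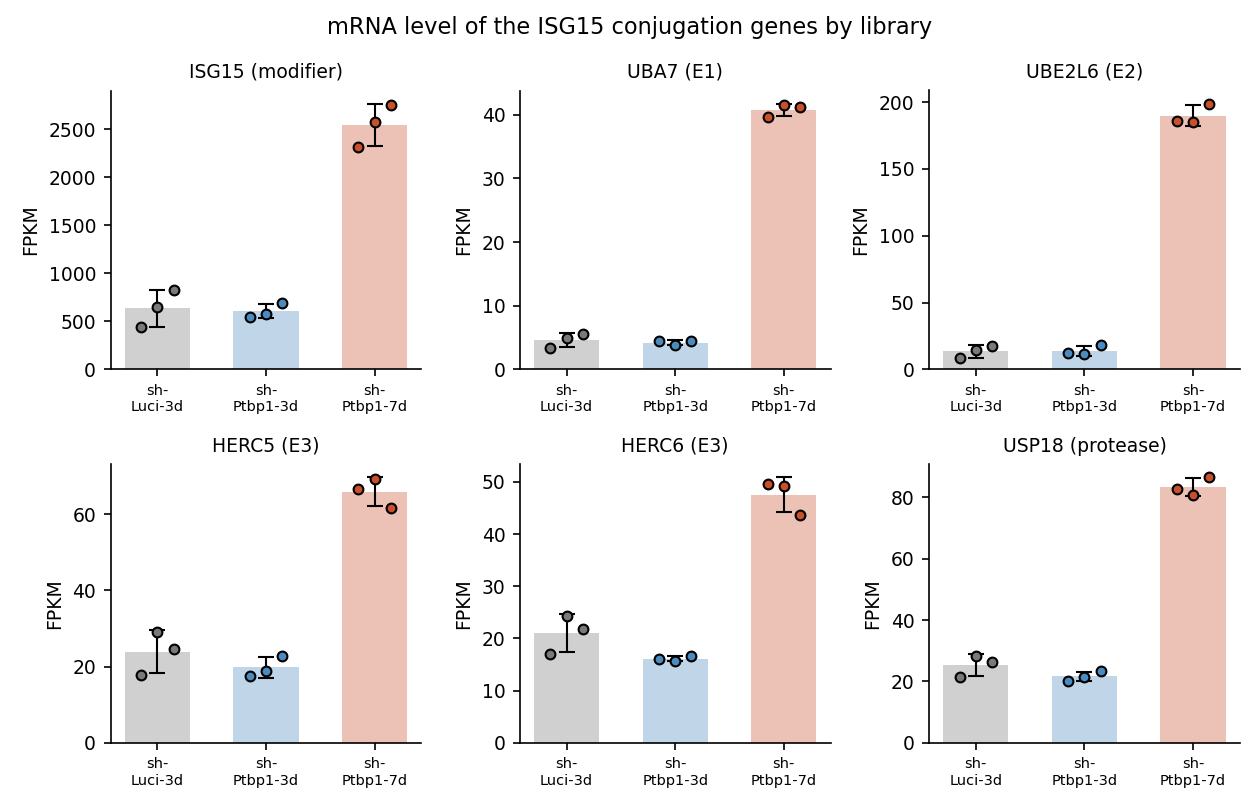
FPKM of each of the 6 genes in the 9 libraries, 1 panel per gene with its own linear axis from 0; bars are group means, whiskers the SD over 3 libraries, and points single libraries. In each panel the 3 sh-Ptbp1-7d points lie above all others, from 1.55 log2 units above sh-Ptbp1-3d for HERC6 to 3.80 for UBE2L6.

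In sh-Ptbp1-7d relative to sh-Ptbp1-3d, 6 of the 6 genes were past the thresholds used, a fold change above 2 and a false discovery rate below 0.01, all of them higher, as were 8.31% of all 15551 genes. All 6 were also past them against sh-Luci-3d, where 8.93% of all genes were higher. The ranges over libraries did not overlap for any of the 6, with sh-Ptbp1-7d higher, as for 35.3% of all genes against sh-Ptbp1-3d and 32.8% against sh-Luci-3d. Since the genes were picked on this contrast, nothing is read from these counts, and the comparisons share the sh-Ptbp1-7d libraries. The median log2 difference over the 6 was 2.01 and 1.88 respectively, and over all genes 0.0924 and 0.0993. Among all genes, the differences from sh-Ptbp1-3d ranked from the 95.6th percentile for HERC6 to the 99.7th for UBE2L6.

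At 3 days none of the 6 passed. In sh-Ptbp1-3d against sh-Luci-3d, 0 of the 6 genes were past a fold change of 2 with a false discovery rate below 0.05 in limma, as were 0.0129% of all genes, and 1 of the 6 had an unadjusted p below 0.05, as did 7.24% of all genes. That gene was HERC6, whose sh-Ptbp1-3d libraries (15.7 to 16.6 FPKM) all lay below the sh-Luci-3d libraries (17.1 to 24.2), a pattern found for 4.93% of all genes. The log2 differences ran from -0.36 for HERC6 through -0.25 for HERC5, -0.22 for USP18, -0.10 for UBA7 and -0.03 for ISG15 to 0.08 for UBE2L6. Without sh-Luci-3d replicate 1 those of ISG15, UBA7 and UBE2L6 were -0.28, -0.30 and -0.23, and without replicate 3 they were 0.17, 0.046 and 0.30, so their sign rests on single control libraries. With 3 libraries a group, an exact permutation test of 1 gene cannot go below p = 0.1. PTBP1 itself, the target of the hairpin, fell short of the fold threshold at 3 days (log2 difference -0.85, limma adjusted p = 0.00314). The paper, by its own test, reported more genes past these thresholds. The count of 0 thus says little of the 6 genes.

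**Figure D2:**
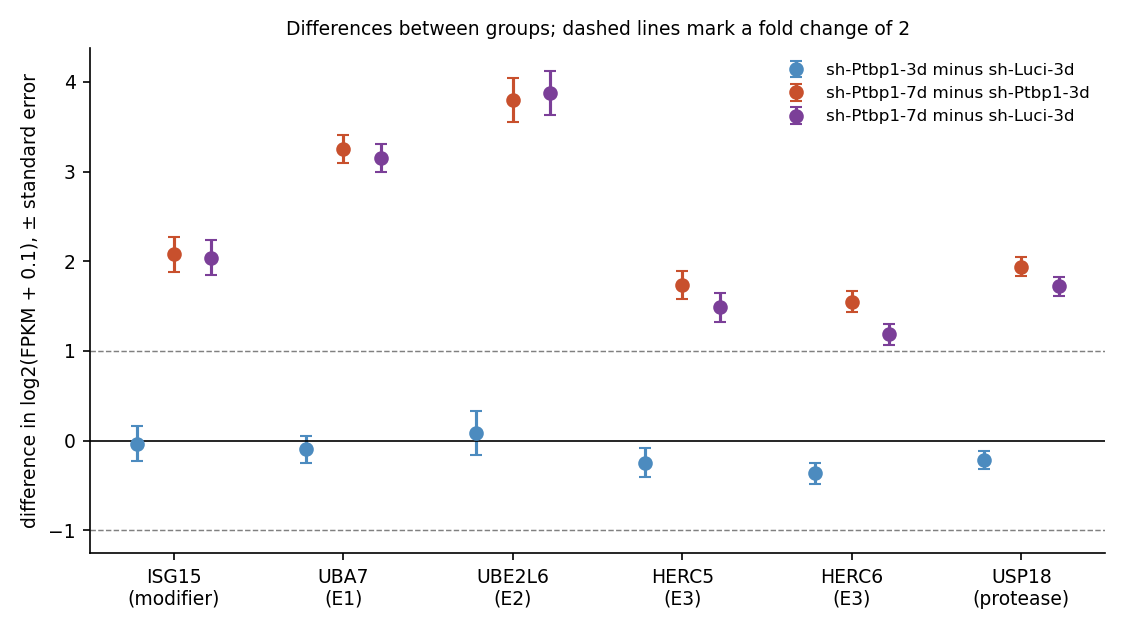
Difference in log2(FPKM + 0.1) between groups for each of the 6 genes, with the limma standard error as whiskers; the dashed lines mark a fold change of 2. Both comparisons of sh-Ptbp1-7d lie above 1 for all 6 genes, and those of sh-Ptbp1-3d against sh-Luci-3d lie between -0.36 and 0.08.

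Because the steps of the chain differed by unlike amounts, its make-up was not the same in the groups. UBA7 mRNA was 0.730 ± 0.0516% of ISG15 mRNA (SD, n = 3) in sh-Luci-3d, 0.700 ± 0.0930% in sh-Ptbp1-3d and 1.61 ± 0.109% in sh-Ptbp1-7d. UBE2L6 went from 2.08 ± 0.194% and 2.27 ± 0.331% to 7.49 ± 0.487%. These shares, which set the E1 and the E2 against the modifier they carry, did not overlap between sh-Ptbp1-7d and the other groups. HERC5 stood the other way, at 3.85 ± 0.753%, 3.28 ± 0.0506% and 2.61 ± 0.325%. So did HERC6, at 3.42 ± 0.675%, 2.69 ± 0.273% and 1.88 ± 0.280%. The shares of both ligases at day 7 lay below all those of the other libraries. For USP18 the shares were 4.16 ± 0.873%, 3.60 ± 0.196% and 3.29 ± 0.253%, and the groups overlapped.

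**Figure D3:**
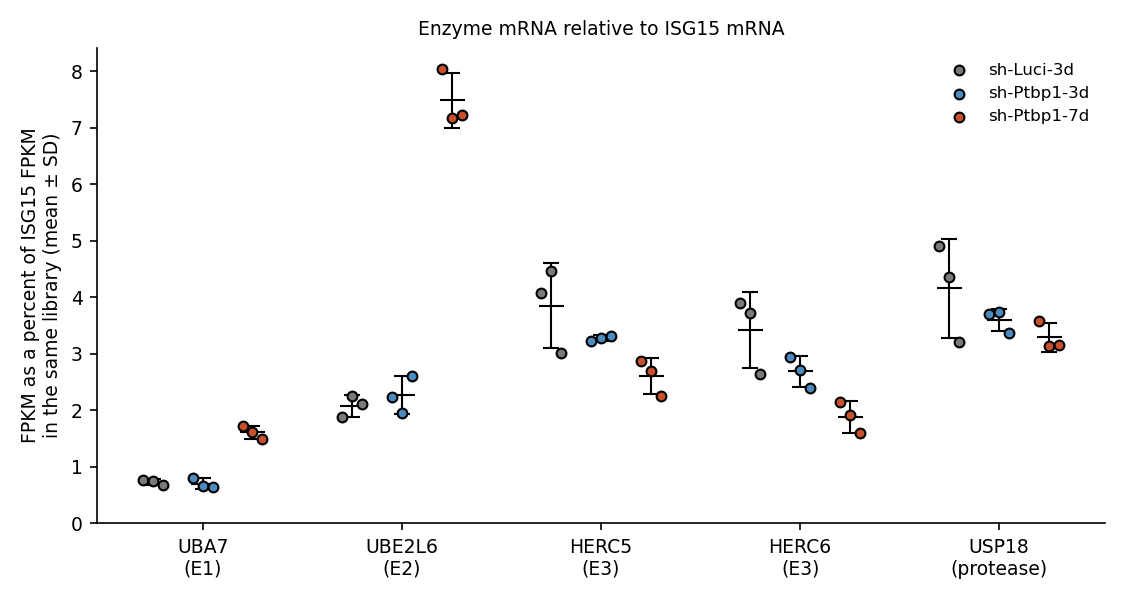
FPKM of the 5 enzymes as a percent of ISG15 FPKM in the same library; points are libraries, and the lines are the mean and SD over 3. UBE2L6 reached 7.49% in sh-Ptbp1-7d from 2.27% in sh-Ptbp1-3d, and HERC6 stood at 1.88% after 2.69%.

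The order of the enzymes changed with these shares. In sh-Luci-3d and sh-Ptbp1-3d the order below ISG15 was USP18, HERC5, HERC6, UBE2L6 and UBA7. In sh-Luci-3d each of the first 3 overlapped with the next in its range over libraries, and in sh-Ptbp1-3d USP18 overlapped HERC5 and HERC6 overlapped UBE2L6. UBA7 was below all others in both groups. In sh-Ptbp1-7d the order was UBE2L6 (190.0 ± 7.69 FPKM), USP18 (83.4 ± 2.96), HERC5 (65.9 ± 3.84), HERC6 (47.5 ± 3.35) and UBA7 (40.8 ± 0.948), with no overlap between neighbours. The ratio of the highest mean, ISG15, to the lowest, UBA7, was 138.9 in sh-Luci-3d, 144.1 in sh-Ptbp1-3d and 62.5 in sh-Ptbp1-7d.

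Ratios were also taken between the enzyme mRNAs. UBE2L6 to UBA7, the E2 to its E1, was 2.43, 3.03 and 3.14 in sh-Luci-3d, 2.77, 2.96 and 4.13 in sh-Ptbp1-3d and 4.69, 4.46 and 4.83 in sh-Ptbp1-7d, where all 3 values lay above the others. HERC5 to HERC6 was 1.05, 1.20 and 1.14, then 1.09, 1.21 and 1.38, then 1.34, 1.41 and 1.41, so that HERC5 was the higher in all 9 libraries. The values of sh-Ptbp1-3d overlapped those of both other groups, and those of sh-Ptbp1-7d lay above those of sh-Luci-3d. HERC5 plus HERC6 to the protease USP18 was 1.62, 1.88 and 1.77 in sh-Luci-3d, 1.67, 1.61 and 1.69 in sh-Ptbp1-3d and 1.40, 1.47 and 1.22 in sh-Ptbp1-7d, the lowest 3 of the 9. HERC5 is the ligase given above for human cells, so this sum is no measure of attachment against removal of ISG15.

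In the 3-day groups much of the spread was shared by the genes. In sh-Luci-3d replicate 1, all 6 genes were the lowest of their group, by 0.23 to 0.63 log2 units below the group mean. In sh-Ptbp1-3d replicate 3, 5 of 6 were the highest. In sh-Ptbp1-7d all deviations lay between -0.134 and 0.114 and were less shared. In its replicate 3, 3 genes were the highest of their group and 2 (HERC5 and HERC6) the lowest. Over the 9 libraries, Pearson's r between the deviations of any 2 of the genes ran from 0.607 (ISG15 and HERC6) to 0.937 (ISG15 and UBE2L6), given as a description of values that share their libraries. The larger deviations of the 3-day libraries weigh most in r. The coefficient of variation of the 6 genes was 13.8 to 34.9% in sh-Luci-3d, 2.75 to 26.4% in sh-Ptbp1-3d and 2.33 to 8.59% in sh-Ptbp1-7d.

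**Figure D4:**
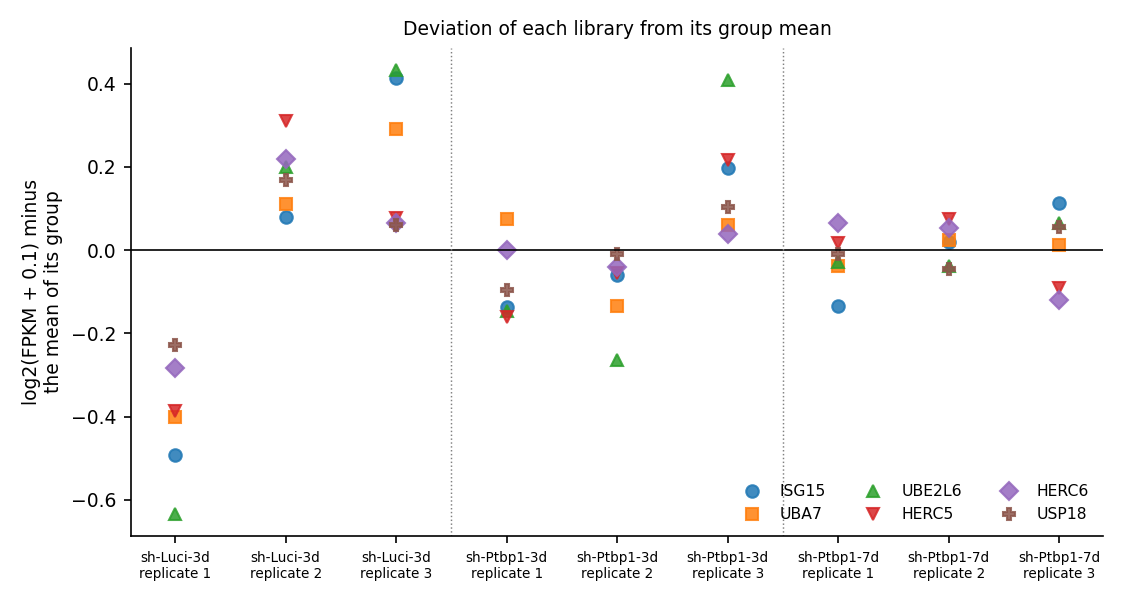
Deviation of each library from the mean of its group, in log2(FPKM + 0.1), for the 6 genes; the vertical lines divide the groups. The 6 points of sh-Luci-3d replicate 1 all lie below 0, down to -0.63 for UBE2L6, and the sh-Ptbp1-7d points lie near 0.

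Other ubiquitin-like modifiers and their enzymes showed what the same roles did elsewhere. Of 142 such genes, 133 were tested, 4 of which rose and 1 of which fell in sh-Ptbp1-7d relative to sh-Ptbp1-3d (limma, Benjamini-Hochberg), with a median log2 difference of 0.070 beside 0.0924 over all genes. Of all genes, 8.31% rose and 5.9% fell. Against sh-Luci-3d 3 rose and 1 fell, beside 8.93% and 5.68% of all genes. At 3 days 0 passed in limma, beside 0.0129% of all genes. There 2 were higher and 3 lower at an unadjusted p below 0.05, beside 7.24% of all genes in either direction. Without sh-Ptbp1-3d replicate 2 the first count of 5 was 3, and with a pseudocount of 1 the second count of 4 was 2.

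Role by role, no relative had a log2 difference of sh-Ptbp1-7d relative to sh-Ptbp1-3d as large as the ISG15 pathway gene of its role. Since the pathway genes were picked on this contrast, nothing is read from that order. Among 17 other modifiers, GABARAPL1, which works in autophagy, rose from 22.7 ± 0.212 to 57.4 ± 6.03 FPKM (log2 difference 1.33, adjusted p = 4.91e-07). RPS27A, a fusion of ubiquitin with a ribosomal protein, fell from 456.9 ± 38.9 to 220.1 ± 9.21 FPKM (-1.05, adjusted p = 3.10e-06). By group mean ISG15 was the highest of the 19 modifiers, next to the ubiquitin gene UBB at 592.4 FPKM in sh-Luci-3d, 531.5 in sh-Ptbp1-3d and 677.7 in sh-Ptbp1-7d. In sh-Luci-3d the ranges of ISG15 (438.3 to 821.3) and UBB (573.7 to 625.9) overlapped, and replicate 1 had more UBB and RPS27A than ISG15.

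Of the 9 other E1 enzymes 0 passed (limma, with 2 higher and 4 lower at an unadjusted p below 0.05, as were 56.3% of all genes), and MOCS3 had the highest log2 difference, 0.61. UBA1, the main E1 of ubiquitin, was at 128.2 ± 2.56, 130.3 ± 1.78 and 103.6 ± 4.40 FPKM, a log2 difference of -0.33 for sh-Ptbp1-7d relative to sh-Ptbp1-3d (adjusted p = 0.00175), below the fold threshold. By group mean UBA7 was number 9 of the 10 in both 3-day groups and number 3 in sh-Ptbp1-7d.

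Among the 36 other E2 enzymes tested 0 passed, and the highest was UBE2W at 0.70. At an unadjusted p below 0.05 (limma) 7 were higher and 9 lower, beside 56.3% of all genes in either direction. UBE2L3, the ubiquitin E2 closest to UBE2L6, was at 37.9 ± 0.926, 37.5 ± 1.51 and 31.2 ± 2.32 FPKM, with a log2 difference of -0.27 (adjusted p = 0.0143). UBE2L6 was number 25 of the 39 E2 mRNAs by group mean at 3 days, and number 1 in sh-Ptbp1-7d, above UBE2M, a NEDD8 enzyme, at 133.4 FPKM.

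Of the 25 other HECT ligases tested, the class of HERC5 and HERC6, 0 passed, and the highest was HACE1 at 0.76. At an unadjusted p below 0.05 (limma) 2 were higher and 6 lower, beside 56.3% of all genes in either direction. HERC3, a near relative that lies 86.3 kb from HERC5, was at 0.210, 0.266 and 0.0946 FPKM in the means of the groups (adjusted p = 0.145 between the last 2). In sh-Ptbp1-7d HERC5 and HERC6 were above every other HECT ligase by group mean, of which UBE3A was the highest at 31.9 FPKM.

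Of the 46 other ubiquitin-specific proteases tested 3 rose, beside 8.31% of all genes. USP42 rose from 3.81 ± 0.194 to 8.86 ± 0.444 FPKM (log2 difference 1.20, adjusted p = 1.77e-05) and USP11 from 20.0 ± 0.276 to 41.9 ± 2.78 (1.06, adjusted p = 2.00e-06). USP50 was listed at 0 in all sh-Ptbp1-3d libraries and at 0.358, 0.179 and 0.281 FPKM in sh-Ptbp1-7d (adjusted p = 0.00424). The nearest value to that of USP18 was USP41, at a log2 difference of 1.88 (SE 0.979) that did not pass (adjusted p = 0.135). With that SE, USP41 and USP18 (1.94) cannot be put in order. By group mean USP18 was number 2 of 52 in sh-Ptbp1-7d, with a range that overlapped that of USP22, at 84.0 FPKM.

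**Figure D5:**
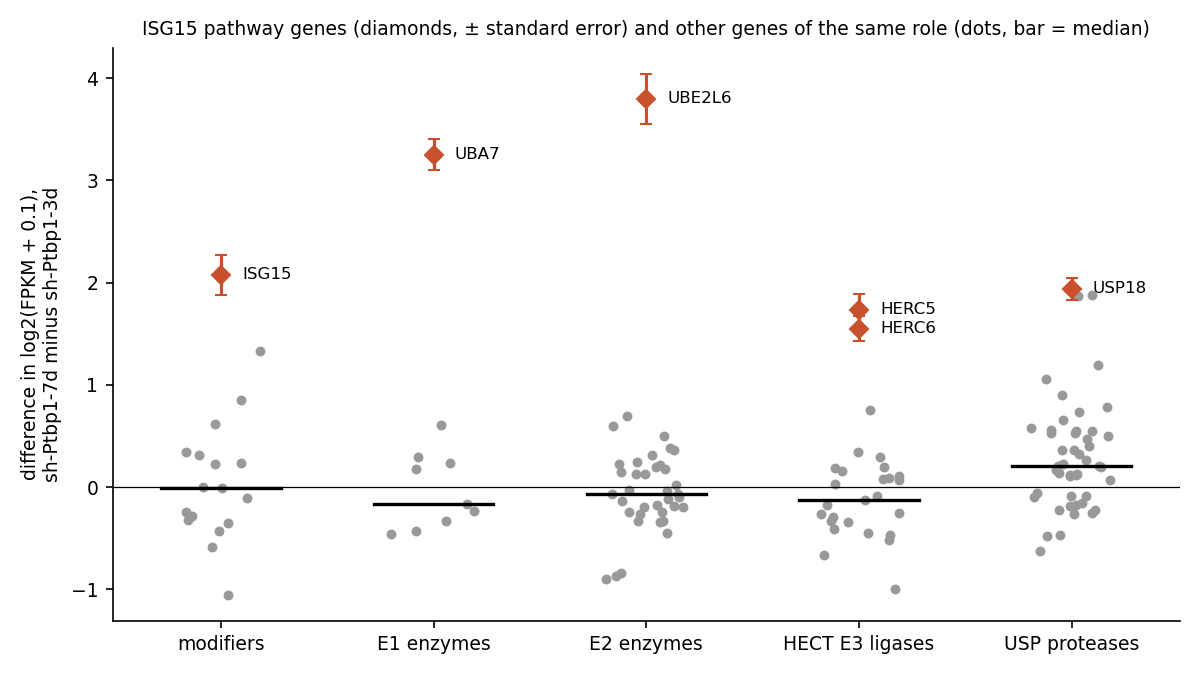
Difference in log2(FPKM + 0.1), sh-Ptbp1-7d minus sh-Ptbp1-3d, for the ISG15 pathway genes (diamonds, with the standard error) and other genes of each role (dots), with the median of the dots as a bar. Each diamond lies above the dots of its role, whose medians run from -0.17 for the E1 enzymes to 0.21 for the proteases. The diamonds are genes picked on this contrast, so nothing is read from that order.

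Of 12 further genes known to act with ISG15, 11 were tested and 1 rose in sh-Ptbp1-7d relative to sh-Ptbp1-3d, a share near the 8.31% of all genes that rose. That was STAT2, which anchors USP18 to the interferon receptor and is part of the factor that binds the ISRE. It was at 44.2 ± 4.01 FPKM in sh-Luci-3d, 39.1 ± 2.01 in sh-Ptbp1-3d and 110.8 ± 6.76 in sh-Ptbp1-7d (log2 difference 1.50, adjusted p = 2.96e-07). TRIM25, an E3 ligase that can also transfer ISG15 and is itself modified by it, was at 46.3 ± 6.20, 44.2 ± 2.26 and 45.9 ± 5.45 FPKM (0.048, adjusted p = 0.750). Among proteases reported to act on ISG15 besides USP18, USP5 and USP13 had log2 differences of -0.47 (adjusted p = 0.00507) and -0.63 (adjusted p = 0.00268), and USP21 of 0.37 (adjusted p = 0.00797), all below the fold threshold.

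Of genes for proteins known to carry ISG15, 3 that rose in sh-Ptbp1-7d relative to sh-Ptbp1-3d are given here, without a count over their list. The antiviral GTPase MX1 rose from 28.2 ± 5.23 to 157.7 ± 5.53 FPKM (log2 difference 2.50, adjusted p = 2.36e-06). IFIT1, which binds foreign RNA ends, rose from 114.3 ± 16.6 to 442.3 ± 24.0 (1.96, adjusted p = 3.43e-06). The RNA sensor DDX58, also called RIG-I, rose from 51.1 ± 4.30 to 171.3 ± 9.99 (1.74, adjusted p = 4.43e-06). These 3 are themselves known as interferon-induced genes.

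Of 21 genes that make or relay interferon, 17 were tested, 6 rose and 0 fell, with a median log2 difference of 0.66, where 8.31% of all genes rose and 5.9% fell with a median of 0.0924. IFNB1, the interferon beta gene itself, was listed at 0 in the 3 sh-Luci-3d libraries, at 0, 0.116 and 0 FPKM in sh-Ptbp1-3d and at 0.567, 0.294 and 0.762 in sh-Ptbp1-7d (adjusted p = 0.00138). These levels are low, and with a pseudocount of 1 or 0.01 IFNB1 did not pass. IRF1, a transcription factor of the response, rose from 9.92 ± 1.36 to 37.9 ± 1.99 FPKM (log2 difference 1.93, adjusted p = 9.81e-07). SOCS1, which like USP18 restrains interferon signalling, rose from 1.67 ± 0.466 to 4.35 ± 0.130 (1.36, adjusted p = 0.000596).

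The chromosomal neighbours of the 6 genes, up to 2 on each side, made 20 genes, of which 6 rose and 1 fell from sh-Ptbp1-3d to sh-Ptbp1-7d, beside 8.31% and 5.9% of all genes. HES4, the gene before ISG15 and a repressor of the HES family, rose from 44.7 ± 4.37 to 124.7 ± 12.6 FPKM (log2 difference 1.48, adjusted p = 0.000223). In GENCODE it lies 1.0 kb before ISG15, but the start of ISG15 there lies well ahead of the RefSeq start used for the promoter. AGRN, on the other side of ISG15, had a log2 difference of 0.68 (adjusted p = 0.00152), below the fold threshold, and PERM1 and C1orf159 did not pass. PPM1K, a phosphatase gene 94.0 kb before HERC6, rose from 3.02 ± 0.0721 to 13.0 ± 1.15 FPKM (2.07, adjusted p = 3.83e-07), while ABCG2, PIGY and HERC3 around the ligase pair did not pass.

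Most of the other neighbours that passed were near 0 at 3 days. SERPING1, the complement C1 inhibitor 29.1 kb from UBE2L6, was listed at 0 in all sh-Luci-3d libraries and stood at 1.75, 2.04 and 1.98 FPKM in sh-Ptbp1-7d. SMTNL1 and YPEL4 at the same locus reached means of 0.385 and 0.349 FPKM. TUBA8, 3.3 kb before USP18, rose from 0.200 ± 0.0505 to 1.01 ± 0.0867 FPKM (1.90), and TMEM191B, 350.4 kb after USP18, fell from 0.907 ± 0.193 to 0.158 ± 0.0827 (-2.005). INKA1, 0.2 kb beyond the 3' end of UBA7, had a log2 difference of 0.99 (adjusted p = 0.00452), just below the fold threshold, and IP6K1, TRAIP, CAMKV, TIMM10, PEX26 and RIMBP3 did not pass. With a pseudocount of 1, 3 neighbours passed in place of 7, and 2 did among genes at 1 FPKM or more in the mean.

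The genes most like ISG15 over the 9 libraries, among 11334 at 1 FPKM or more in the mean, were GMPR (Pearson r = 0.998), PSMB8 (0.995), SHFL (0.995), LGALS9 (0.994) and IFI35 (0.994). For the mean of the 6 genes they were MX1 (0.998), TRIM22 (0.998), LAP3 (0.997), PML (0.997) and SHFL (0.997). These values rest mostly on the distance of sh-Ptbp1-7d from the other groups, which all of these points share.

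In GENCODE the span of ISG15 holds the antisense gene AL645608.1 and the pseudogene AL645608.3, and that of UBA7 the microRNA gene MIR5193, which were not analysed here. Whether fragments were counted by strand is not given in the sources used here, so reads from ISG15 and AL645608.1 cannot be told apart. A single assembled locus without a name lay within 10 kb of any of the 6 genes, next to ISG15, at 0.267 FPKM in the mean of sh-Luci-3d, 0.219 in sh-Ptbp1-3d and 0.368 in sh-Ptbp1-7d, and it did not pass.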

How the data were processed

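RNA of 9 U251 libraries was sequenced, and the labels put 3 in each of the groups. For every gene and library the authors deposited an FPKM value. HISAT2 and GRCh38 stand in the submitters' processing notes, and StringTie identifiers mark 2363 assembled loci among the 22295 entries. The assembled loci were deposited as coordinates, and used here only to look for loci near the genes. GENCODE v29 gave positions. FPKM keeps no read number, and so depths are unknown. No pair of libraries held identical values.

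For the 15551 genes whose mean reached 0.1 FPKM, log2(FPKM + 0.1) was fitted over all 9 libraries with limma 3.58.1 (R 4.3.3), with an intensity trend and Benjamini-Hochberg adjustment over all of them. Fold changes on this scale understate those of low genes. Thresholds were a fold change above 2 with FDR below 0.05 at 3 days and below 0.01 for sh-Ptbp1-7d, after the study's methods. The fit was tested on simulated data. Motifs and shared windows were searched with Python 3.11.15, and figures drawn with matplotlib 3.10.9.

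The 6 genes and all lists were chosen with earlier results of these data known. Named beside them were, from each list, up to 4 genes past the thresholds for sh-Ptbp1-7d relative to sh-Ptbp1-3d with the largest difference, UBA1, UBE2L3, HERC3, USP41, IFNB1, PTBP1, all neighbours and the 5 genes of most similar pattern. Other genes, such as TRIM25, USP5, USP13, USP21, UBB and those highest in a role, were named after their values were seen. Marker lists are given by the ranges of their sums. Of the list of ISG15 target proteins, some genes and the count are not reported here. Alternatives were other pseudocounts, filters and scalings, 2 groups fitted alone, no trend, no assembled loci, a replicate block and each library left out.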

Additional observations from a re-analysis of the deposited data

How the results depend on the processing

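The counts of the 6 ISG15 pathway genes past the thresholds were the same under all 20 alternatives: 0 at 3 days, and 6 in each comparison of sh-Ptbp1-7d. The log2 difference of sh-Ptbp1-7d relative to sh-Ptbp1-3d ran from 2.01 to 2.55 for ISG15, 3.01 to 3.37 for UBA7, 3.67 to 4.002 for UBE2L6, 1.65 to 1.84 for HERC5, 1.49 to 1.66 for HERC6 and 1.87 to 2.04 for USP18. The median over the 6 in that comparison was 2.11 with TPM and 2.26 with quantile normalization, and against sh-Luci-3d 1.96 and 2.11. These scalings also moved the median of all genes, from 0.0924 to 0.191 and -0.00871 in the first comparison. With single libraries left out, the median against sh-Luci-3d ran from 1.70 to 1.999, and at 3 days from -0.316 to -0.0672.

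Of the other modifiers and enzymes, 3 to 5 passed in sh-Ptbp1-7d relative to sh-Ptbp1-3d with single libraries left out, and against sh-Luci-3d 2 with a pseudocount of 1. The neighbours past the thresholds numbered 3 with a pseudocount of 1 and 2 at a minimum mean of 1 FPKM, and 3 and 3 against sh-Luci-3d. Of the values for single genes under an alternative, 46 fell short of the threshold that the value as reported passed, 8 passed where it did not, and 0 turned direction past it; causes were not tested.

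Replicate numbers did not pair the libraries. Deviations of same-numbered libraries correlated at -0.0317 to 0.0512 over 9 pairs. With the replicate block, 6 of the 6 genes passed in both comparisons of sh-Ptbp1-7d and 0 at 3 days, with medians as without it, and 2140 genes in all passed for sh-Ptbp1-7d relative to sh-Ptbp1-3d in place of 2211. Without counts of reads, what depth limits cannot be given, and 3 libraries a group limit the precision.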
